A study of Mus musculus with 10 samples.

Results

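The genes of erythropoietin (EPO) and KIT signalling were followed in erythroid precursors of the bone marrow from mice that differed at *Ddx41* and *Trp53*. The set holds 9 genes, chosen by symbol: *Epor*, *Kit*, *Jak2*, *Stat5a*, *Stat5b*, *Cish*, *Socs2*, *Socs3* and *Pim1*. All 9 were among the 24421 genes counted, and all 9 passed the filter on low counts that left 11846 genes for testing. The RNA came from R2 cells, erythroid precursors sorted by flow cytometry as CD71+Ter119+, that is, with the transferrin receptor and a glycophorin-associated antigen at the surface. Lethally irradiated BoyJ mice had received bone marrow from RosaCreERT2 donors, which carry a tamoxifen-activated Cre recombinase in the ubiquitous Rosa26 locus. The marrow was collected 8 weeks after transplantation, and each library came from 1 recipient.

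There were 4 genotypes of donor marrow. Wild-type marrow (Ddx41+/+ with Trp53+/+, 3 mice) carried neither change. Single Ddx41 heterozygotes (Ddx41+/- with Trp53+/+, 2 mice) had 1 floxed *Ddx41* allele excised by tamoxifen in the recipient. Single Trp53 heterozygotes (Ddx41+/+ with Trp53+/-, 3 mice) carried 1 germline knockout allele of *Trp53*. Double heterozygotes (Ddx41+/- with Trp53+/-, 2 mice) carried both. All groups shared the RosaCreERT2 transgene, the irradiation, the transplantation and the tamoxifen, and the ages of donors and recipients were not given in the sources used here. Cells of the recipient that outlived the irradiation could also have entered a sort on CD71 and Ter119.

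EPO is the hormone that keeps erythroid precursors alive and dividing. It binds EPOR, a receptor without kinase activity of its own, whose bound kinase JAK2 phosphorylates STAT5A and STAT5B, and these enter the nucleus and switch on genes such as *Cish*, *Pim1* and *Fam132b*. KIT, the receptor tyrosine kinase for stem cell factor, acts mainly in earlier progenitors and is lost as red cell precursors mature, while CISH and the SOCS proteins are induced by the pathway and damp it.

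Sequence upstream of the start is shown for 3 genes. *Epor* and *Socs3* held the motif matches found among the members, and *Fam132b*, the erythroferrone gene, held none and is shown because it was the other pathway gene called. Each run is the 250 bases before the RefSeq start on GRCm38, read on the strand of the gene. Capitals mark a match to AGATAA, the site read by GATA factors, or to TTCNNNGAA, the palindrome read by STAT factors, both searched on both strands.
Epor, chr9:21963577-21963826, minus strand: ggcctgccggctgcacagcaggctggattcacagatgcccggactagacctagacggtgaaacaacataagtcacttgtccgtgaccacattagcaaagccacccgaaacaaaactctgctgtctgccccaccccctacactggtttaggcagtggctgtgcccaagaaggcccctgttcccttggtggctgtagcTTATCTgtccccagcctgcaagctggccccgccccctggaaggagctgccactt
Socs3, chr11:117969367-117969616, minus strand: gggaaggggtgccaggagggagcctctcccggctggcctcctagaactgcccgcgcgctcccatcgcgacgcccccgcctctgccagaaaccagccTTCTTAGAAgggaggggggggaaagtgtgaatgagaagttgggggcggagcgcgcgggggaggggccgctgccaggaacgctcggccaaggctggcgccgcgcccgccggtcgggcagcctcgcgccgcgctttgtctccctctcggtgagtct
Fam132b, chr1:91366180-91366429, plus strand: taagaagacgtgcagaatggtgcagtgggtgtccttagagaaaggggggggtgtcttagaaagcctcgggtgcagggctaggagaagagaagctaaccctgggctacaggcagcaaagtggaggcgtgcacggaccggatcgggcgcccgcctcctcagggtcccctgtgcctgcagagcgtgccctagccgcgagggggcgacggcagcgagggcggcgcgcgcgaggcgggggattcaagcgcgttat
The match upstream of *Epor*, TTATCT, is AGATAA on the other strand and began 54 bases before the start. The match upstream of *Socs3*, TTCTTAGAA, began 154 bases before the start, in a stretch that GENCODE places within *Socs3* but outside the exons of its coding transcripts. Over all 32851 RefSeq starts, the GATA motif stood in 9.99% and the STAT motif in 7.02% of windows of the same length. Windows were searched for 8 of the 9 members (*Socs2* was not analysed here), and those of the other 6, *Cish* included, held neither motif. The *Cish* window, chr9:107296409-107296658, overlapped an exon of a coding transcript of *Cish*, which GENCODE starts at 107296026. Sequence before that GENCODE start was not searched. Windows of *Kit*, *Stat5a*, *Stat5b* and *Pim1* also overlapped exons of their own coding transcripts. A match describes these letters only, and the 2 matches lay in different genes and did not overlap.

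The libraries held 7866648 to 20283930 counts, and the smallest was that of mouse 34, a single Ddx41 heterozygote. Erythroid genes were abundant in all 10 libraries: *Slc4a1*, the anion exchanger band 3, ranged from 25470 to 30510 CPM (counts scaled to a common library size of 1000000 by the TMM method), *Alas2* from 7007 to 8440 CPM and *Tfrc*, which encodes CD71, from 2692 to 3458 CPM. The adult globin genes, which define late red cell precursors, were close to absent from the counts, with 1 to 21 counts of *Hba-a1*, 0 to 4 of *Hba-a2*, 0 to 17 of *Hbb-bs* and 0 of *Hbb-bt*. The sources used here do not say why, and the cause was not tested. These counts are therefore not taken as the level of globin RNA in the cells. *Ddx41* lay at 21.9 to 26.6 CPM in the 6 Ddx41+/+ mice and at 12.5 to 16.5 CPM in the 4 Ddx41+/- mice, and *Trp53* at 57.4 to 68.1 CPM in the 5 Trp53+/+ mice and 40.3 to 46.2 CPM in the 5 Trp53+/- mice, so both targeted genes followed the labels without overlap. Nothing in the sources gives a batch, so mice are the replicates and the number of mice sets the precision.

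Compared per length of exon, the EPO receptor, the survival kinase *Pim1* and *Jak2* were the most abundant members. Median reads per kilobase of coding-transcript exon, scaled as CPM (RPKM) over the 10 mice were 176 for *Epor*, 119 for *Pim1*, 46.4 for *Jak2*, 9.80 for *Stat5b*, 8.65 for *Socs3*, 6.86 for *Cish*, 2.94 for *Stat5a*, 0.897 for *Kit* and 0.280 for *Socs2*. The ranges of *Epor* (163.5 to 198.0 RPKM), *Pim1* (95.9 to 139.8 RPKM) and *Jak2* (41.3 to 51.8 RPKM) did not overlap. Those of *Stat5b*, *Socs3* and *Cish* overlapped one another, as did those of *Kit* and *Socs2*, so the order within these neighbours did not exceed the spread over mice.

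**Figure D1:**
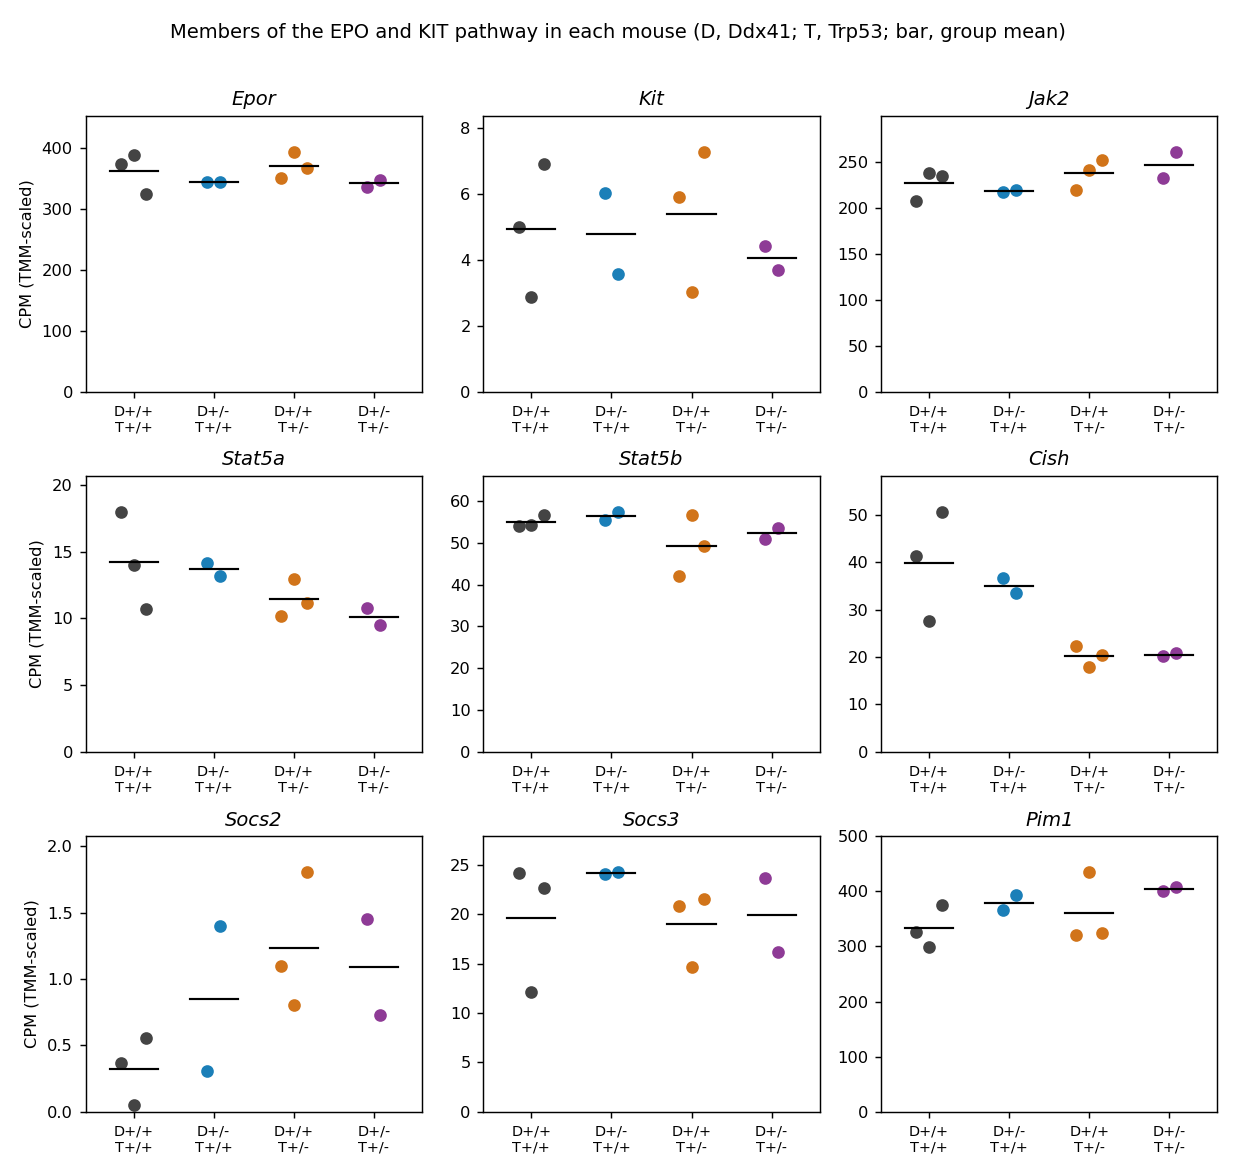
Levels of the 9 members in each mouse, in CPM scaled by TMM on a linear axis from 0, with 1 point per mouse and a bar at the mean of each genotype (D, Ddx41; T, Trp53). The 5 Trp53+/- mice lie at 17.9 to 22.4 CPM of Cish, below all 5 Trp53+/+ mice at 27.7 to 50.6 CPM, and no other member separates the Trp53 genotypes in this way.

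Levels and tests below use 2 thresholds. A gene was called when its edgeR quasi-likelihood test gave a Benjamini-Hochberg adjusted p under 0.05 over the 11846 tested genes and its fold change exceeded 1.5. Log2 fold changes are given with their standard error (SE) or 95% confidence interval. By this rule, *Ddx41* was called for Ddx41+/- over both Trp53 genotypes (log2 fold change -0.70, edgeR adjusted p = 0.0173). It was not called with Trp53+/+ (-0.63, edgeR adjusted p = 0.0887) or with Trp53+/- (-0.78, edgeR adjusted p = 0.177). *Trp53* was called in no comparison. Over both Ddx41 genotypes it was 1.39-fold lower (edgeR adjusted p = 0.00355), under the fold limit. A gene that was not called is therefore not shown to be unchanged. In bulk RNA, fewer cells of a type and less RNA per cell cannot be told apart.

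The 2 receptors were not called in any comparison. *Epor* (GRCm38 chr9:21958897-21963506) stood at 375, 388 and 325 CPM in wild-type mice, 345 and 345 CPM in single Ddx41 heterozygotes, 351, 394 and 367 CPM in single Trp53 heterozygotes, and 337 and 348 CPM in double heterozygotes. It was the least variable member, with a coefficient of variation of 6.32% over the 10 mice. All 4 Ddx41+/- mice lay below the 3 single Trp53 heterozygotes and within the range of the wild-type mice. Over both genotypes of the other gene, its log2 fold change was -0.09 (95% interval -0.21 to 0.02) for Ddx41+/- and 0.01 (-0.10 to 0.13) for Trp53+/-. Both intervals lie inside a change of 1.5-fold in either direction.

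*Kit* (chr5:75574916-75656722) rested on 28 to 125 counts per library. It stood at 5.01, 2.87 and 6.92 CPM in wild-type mice, 6.02 and 3.56 CPM in single Ddx41 heterozygotes, 5.90, 3.03 and 7.28 CPM in single Trp53 heterozygotes, and 4.42 and 3.70 CPM in double heterozygotes. In 3 of the 4 genotypes, the mice differed among themselves by more than the means of the genotypes did. Its log2 fold change was -0.20 (-0.78 to 0.38) for Ddx41+/- and -0.02 (-0.58 to 0.54) for Trp53+/-, so a decrease of 1.5-fold with Ddx41+/- lay within the interval. The ligands were scarce in the sorted cells. *Epo* had 0 counts in all 10 libraries, and the limit a count of 0 allows, 3 counts, is 0.146 to 0.381 CPM. *Kitl*, which encodes stem cell factor, had 6 to 36 counts.

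*Jak2*, the kinase bound to EPOR (chr19:29251828-29313080), stood at 208, 238 and 234 CPM in wild-type mice, 218 and 220 CPM in single Ddx41 heterozygotes, 220, 241 and 252 CPM in single Trp53 heterozygotes, and 232 and 261 CPM in double heterozygotes. Both single Ddx41 heterozygotes lay below all 5 Trp53+/- mice, narrowly in the case of single Trp53 heterozygote 22 (219.9 against 219.8 CPM), and the wild-type mice overlapped every other group. Its log2 fold change was 0.00 (-0.13 to 0.13) for Ddx41+/- and 0.11 (-0.01 to 0.23) for Trp53+/-, neither called.

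The 2 STAT5 genes lie side by side on chromosome 11, *Stat5b* at chr11:100780731-100850724 and *Stat5a* at chr11:100859351-100885169, about 31 Mb from *Trp53*. *Stat5a* stood at 18.0, 14.0 and 10.7 CPM in wild-type mice, 14.2 and 13.2 CPM in single Ddx41 heterozygotes, 10.2, 13.0 and 11.2 CPM in single Trp53 heterozygotes, and 10.8 and 9.53 CPM in double heterozygotes. The Trp53+/- mice held 4 of the 5 lowest values, but wild-type mouse 12 lay among them, and the log2 fold change of -0.36 (SE 0.138) was not called (edgeR adjusted p = 0.331, unadjusted p = 0.0184). *Stat5b*, the more abundant of the pair per length, stood at 54.1, 54.4 and 56.7 CPM in wild-type mice, 55.6 and 57.4 CPM in single Ddx41 heterozygotes, 42.1, 56.8 and 49.2 CPM in single Trp53 heterozygotes, and 51.0 and 53.7 CPM in double heterozygotes. One single Trp53 heterozygote, mouse 22, was lowest, and the log2 fold change for Trp53+/- was -0.14 (-0.30 to 0.02). Of the 75-base stretches of *Stat5a*, 10.2% occur in other genes, most of all in *Stat5b*, so reads in them may have been shared. The exons of *Stat5a* overlap those of *Stat3* on the opposite strand.

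*Cish* was the member that changed, and it changed with *Trp53*. It encodes a STAT5-induced protein that binds activated cytokine receptors and limits their signal, and it lies at chr9:107296026-107302784. It stood at 41.2, 27.7 and 50.6 CPM in wild-type mice, 36.6 and 33.4 CPM in single Ddx41 heterozygotes, 22.4, 17.9 and 20.3 CPM in single Trp53 heterozygotes, and 20.2 and 20.8 CPM in double heterozygotes. All 5 Trp53+/- mice lay below all 5 Trp53+/+ mice, and the wild-type mice were the most spread group. *Cish* was 1.87-fold lower in Trp53+/- mice over both Ddx41 genotypes (log2 fold change -0.90, SE 0.131, edgeR adjusted p = 0.00358), and it ranked 11 of 11846 genes by p. Among Ddx41+/+ mice alone it was 1.97-fold lower (log2 fold change -0.98, SE 0.171, 95% interval -1.34 to -0.62, edgeR adjusted p = 0.00931). Without mouse 24, a single Trp53 heterozygote, that second call was lost at an edgeR adjusted p of 0.052.

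Among Ddx41+/- mice, the difference in *Cish* between Trp53 genotypes was of similar size but not called (log2 fold change -0.78, SE 0.210, edgeR adjusted p = 0.290, unadjusted p = 0.00193, 2 against 2 mice). It was called there in a fit of those 4 mice alone (log2 fold change -0.78, edgeR adjusted p = 0.0199), and when mouse 11, a wild-type mouse, was left out of the shared fit (edgeR adjusted p = 0.049). The interaction between the genotypes was 0.20 (95% interval -0.37 to 0.78), which does not show a Trp53 effect that differs between Ddx41 genotypes, nor that the effects are equal. The *Ddx41* genotype alone gave log2 fold changes of -0.18 (-0.58 to 0.22) with Trp53+/+ and 0.03 (-0.38 to 0.44) with Trp53+/-. The exons of *Cish* overlap those of *Gm17040* and *Gm17041* on the opposite strand. Of its 75-base stretches, 13.2% occur in other genes, most of all in *Gm17041*. Neither *Gm17040* nor *Gm17041* was listed among the counts, and the setting used for strand was not given in the sources used here.

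**Figure D2:**
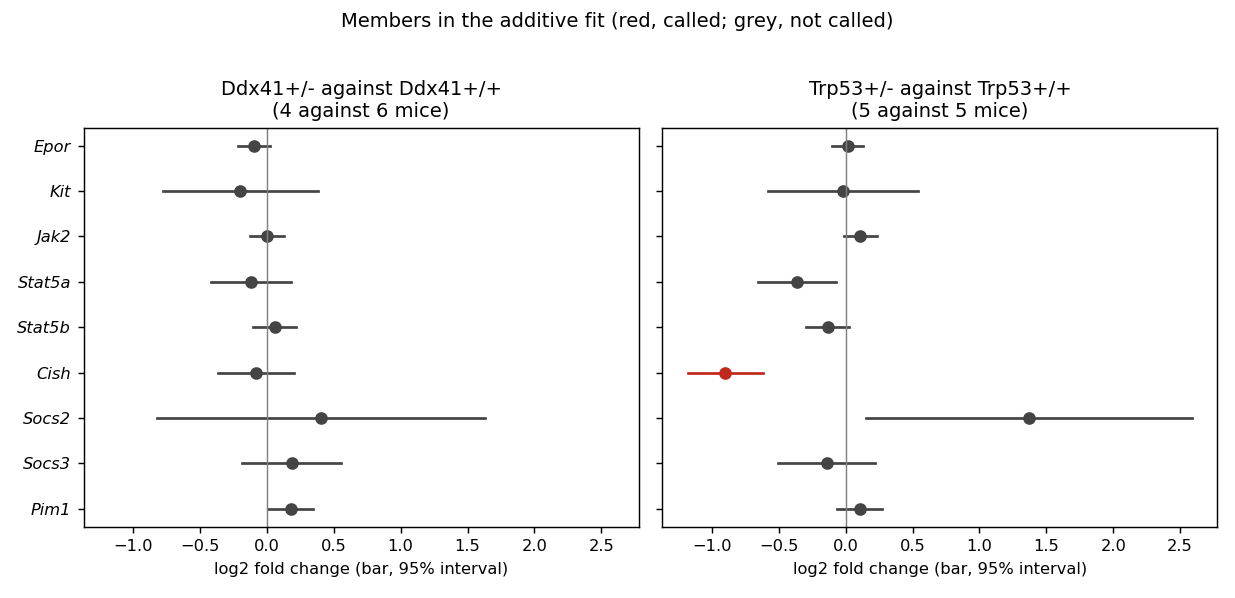
Log2 fold changes of the 9 members in the fit with both genotypes as additive terms, with points for the estimate and bars for the 95% confidence interval, red where called. Only Cish is called, at -0.90 for Trp53+/-, while the interval of Socs2 reaches from 0.15 to 2.59 for Trp53+/- and those of Epor and Jak2 are the narrowest.

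The other SOCS genes were not called. *Socs2* (chr10:95385362-95417180), which encodes an inhibitor of cytokine and growth hormone receptors, was near the limit of the counts, with 1 to 31 counts per library. It stood at 0.369, 0.0486 and 0.553 CPM in wild-type mice, 0.304 and 1.40 CPM in single Ddx41 heterozygotes, 1.10, 0.803 and 1.80 CPM in single Trp53 heterozygotes, and 1.45 and 0.729 CPM in double heterozygotes. The single Trp53 heterozygotes all lay above the wild-type mice, with a log2 fold change of 1.99 (SE 0.738) that was not called (edgeR adjusted p = 0.339, unadjusted p = 0.0159). Of its 75-base stretches, 14.0% occur in other genes, most of all in *Gm9847*. The B cell markers described below also differed between these 2 groups, and their part in the *Socs2* values was not tested.

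*Socs3* (chr11:117966079-117970047), which encodes an inhibitor that binds JAK2 and receptors of the interleukin 6 family, stood at 24.2, 12.2 and 22.6 CPM in wild-type mice, 24.1 and 24.3 CPM in single Ddx41 heterozygotes, 20.8, 14.7 and 21.5 CPM in single Trp53 heterozygotes, and 23.6 and 16.2 CPM in double heterozygotes. Mouse 11 had the lowest level, and in every genotype except the single Ddx41 heterozygotes 1 mouse stood well below the rest. Its log2 fold change was 0.19 (-0.18 to 0.56) for Ddx41+/- and -0.14 (-0.50 to 0.22) for Trp53+/-.

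*Pim1* (chr17:29490753-29496112), a STAT5-induced kinase that promotes survival, stood at 326, 298 and 375 CPM in wild-type mice, 367 and 393 CPM in single Ddx41 heterozygotes, 320, 435 and 324 CPM in single Trp53 heterozygotes, and 402 and 408 CPM in double heterozygotes. The Ddx41+/- mice held 4 of the 6 highest values, but a wild-type mouse and a single Trp53 heterozygote lay among them. The log2 fold change for Ddx41+/- was 0.18 (0.01 to 0.35) and was not called (edgeR adjusted p = 0.536, unadjusted p = 0.041). For Trp53+/- it was 0.11 (-0.06 to 0.27), so *Pim1* and *Cish*, both known as STAT5 targets, had intervals for Trp53+/- that did not overlap. The exons of *Pim1* overlap those of *Gm26885* on the opposite strand.

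Over the set, the counts of called members were low in every comparison, as were those of all genes. For Ddx41+/- with Trp53+/+, 0 of 9 members were called by edgeR, 0 by DESeq2 and 0 at an unadjusted p under 0.05, beside 0.54% of all tested genes called by edgeR and 9.64% at an unadjusted p under 0.05. With Trp53+/-, the members gave the same 3 counts of 0, beside 0.0422% of all genes called and 3.75% at the unadjusted threshold. Over both Trp53 genotypes, 0 members were called by either tool and 1, *Pim1*, had an unadjusted p under 0.05, beside 0.11% and 8.98% of all genes. For Trp53+/- with Ddx41+/+, 1 member fell and 0 rose, and 2, *Cish* and *Socs2*, had an unadjusted p under 0.05, beside 0.912% and 9.44% of all genes. Over both Ddx41 genotypes 1 member fell and 0 rose, and 3, *Cish*, *Socs2* and *Stat5a*, had an unadjusted p under 0.05, beside 0.287% and 11.2%. With Ddx41+/-, 0 members were called by edgeR and 0 by DESeq2, while 1, *Cish*, had an unadjusted p under 0.05, beside 0.169% and 5.41% of all genes. The interaction had 0 members called by either tool or at an unadjusted p under 0.05, beside 0.0675% and 5.01% of all genes.

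Groups that did not overlap were common where groups held 2 or 3 mice. Among the members, 0 of 9 did not overlap for Ddx41+/- with Trp53+/+ (24.9% of all tested genes), 1 with Trp53+/- (20%), and 0 over both Trp53 genotypes (1.57%). For Trp53+/-, 2 of 9 members did not overlap with Ddx41+/+, *Socs2* higher and *Cish* lower (14.1% of all genes). With Ddx41+/-, where 2 mice were set against 2, 6 did not overlap, *Jak2* and *Pim1* higher and *Stat5a*, *Stat5b*, *Cish* and *Socs3* lower (37.3%). Over both Ddx41 genotypes, with 5 against 5 mice, the count was 1 of 9 members, *Cish*, beside 2.01% of all genes. The median log2 fold change of the members was 0.000431 for Ddx41+/- and -0.0206 for Trp53+/-, against 0.000443 and -0.00242 over all tested genes.

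The rest of the pathway was followed in lists of its signal transducers, its inhibitors and its target genes. Among signal transducers such as *Csf2rb*, *Lyn*, *Grb2*, *Pik3r1* and *Akt1*, 32 of 33 genes were tested and 0 were called by edgeR in any of the 7 comparisons, with 5 at an unadjusted p under 0.05 for Ddx41+/- (8.98% of all tested genes) and 6 for Trp53+/- (11.2%) over both genotypes of the other gene. Among 25 inhibitors such as phosphatases, adaptors and SOCS genes, all were tested and 0 were called, with 6 and 2 at an unadjusted p under 0.05 in the same comparisons, beside the same shares of all genes. The medians of the log2 fold change for Ddx41+/- and Trp53+/- were 0.0391 and 0.0514 for the transducers and 0.0808 and 0.0228 for the inhibitors. Of 25 listed EPO-induced and STAT5 target genes, 23 were in the table and 22 were tested. There, 1 gene fell for Trp53+/- and 0 rose, with 21 not called, beside 0.287% of all tested genes called. The medians were 0.0653 for Ddx41+/- and 0.0170 for Trp53+/-.

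**Figure D3:**
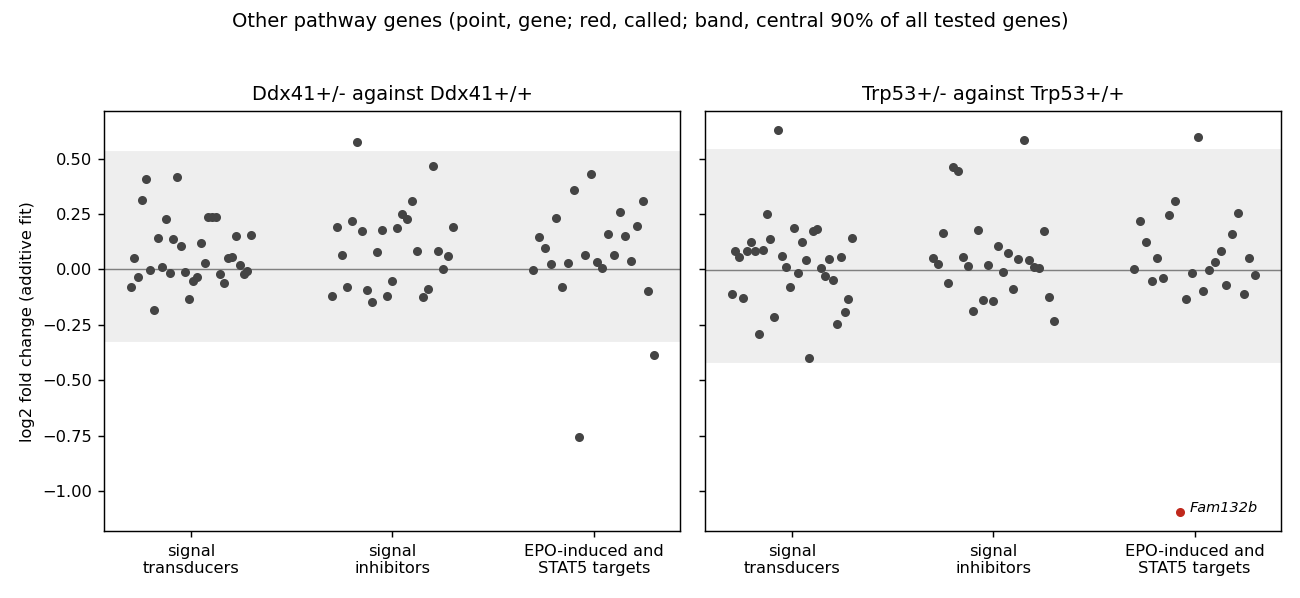
Log2 fold changes of the tested genes of 3 pathway lists in the additive fit, with 1 point per gene, red where called, and a band over the central 90% of all tested genes. Most points lie within the band, and Fam132b, at -1.10 for Trp53+/-, is the one called gene.

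The called gene was *Fam132b*, the older symbol of the erythroferrone gene (chr1:91366430-91374217). Erythroferrone is a hormone that erythroid precursors secrete in response to EPO through STAT5, and that lowers hepcidin in the liver. *Fam132b* stood at 57.2, 38.0 and 60.3 CPM in wild-type mice, 24.5 and 21.8 CPM in single Ddx41 heterozygotes, 25.8, 18.9 and 14.8 CPM in single Trp53 heterozygotes, and 16.7 and 14.1 CPM in double heterozygotes. All 7 mice with either heterozygous genotype lay below the 3 wild-type mice. How many of all tested genes separate the mice in this way was not counted. It was 2.64-fold lower for Trp53+/- with Ddx41+/+ (log2 fold change -1.40, SE 0.189, edgeR adjusted p = 0.00141) and 2.23-fold lower for Ddx41+/- with Trp53+/+ (-1.15, SE 0.216, edgeR adjusted p = 0.0169). Both comparisons share the 3 wild-type mice as controls. The Ddx41 call was lost without mouse 10 (edgeR adjusted p = 0.0577), mouse 32 (0.135) or mouse 34 (0.291).

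Among mice already heterozygous at the other gene, *Fam132b* was not called. The log2 fold change was -0.35 (95% interval -0.81 to 0.11) for Ddx41+/- with Trp53+/- and -0.60 (-1.10 to -0.09) for Trp53+/- with Ddx41+/-. The interaction, 0.80 (0.16 to 1.45), was not called (edgeR adjusted p = 0.830, unadjusted p = 0.0175). Over both Ddx41 genotypes *Fam132b* was 2.14-fold lower in Trp53+/- mice (log2 fold change -1.10, SE 0.175, edgeR adjusted p = 0.00664), although the groups overlapped. *Cish* and *Fam132b* thus had different patterns, *Cish* within and *Fam132b* below the range of the wild-type mice in the single Ddx41 heterozygotes, where the log2 fold changes were -0.18 (-0.58 to 0.22) and -1.15 (-1.61 to -0.70). The exons of *Fam132b* overlap those of *Ilkap* on the opposite strand, and 10.3% of its 75-base stretches occur in other genes, most of all in *Ilkap*.

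**Figure D4:**
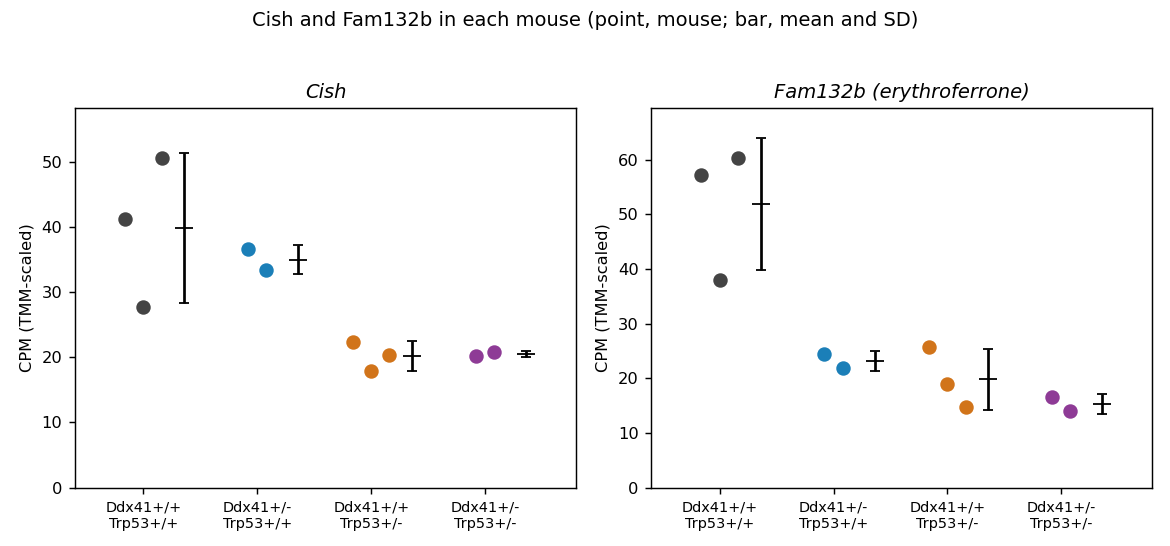
Cish and Fam132b in each mouse, in CPM scaled by TMM on linear axes from 0, with points for mice and a bar for the mean and SD of each genotype. Cish is low in the 5 Trp53+/- mice at 17.9 to 22.4 CPM, while Fam132b is highest in the 3 wild-type mice at 38.0 to 60.3 CPM and lies at 14.1 to 25.8 CPM in all others.

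Markers of other cell types also differed between the Trp53 genotypes. The 7 mast cell and basophil markers summed to 18.7 to 44.95 CPM in the 5 Trp53+/+ mice and 57.7 to 121.6 CPM in the 5 Trp53+/- mice, without overlap. Of the 5 tested, 2 rose over both Ddx41 genotypes, where 0.287% of all tested genes were called. They were *Cpa3*, a mast cell protease (log2 fold change 1.42, SE 0.225, edgeR adjusted p = 0.00664), and *Prss34*, a basophil protease (1.21, SE 0.178, edgeR adjusted p = 0.00376). *Tpsb2*, a mast cell tryptase, had 0 counts in every library. The B cell markers summed to 214 to 361 CPM in wild-type mice, 361 to 519 CPM in single Ddx41 heterozygotes, 382 to 469 CPM in single Trp53 heterozygotes and 423 to 485 CPM in double heterozygotes. Of the 10 tested, 6 rose for Trp53+/- with Ddx41+/+ (0.912% of all tested genes called). For Ddx41+/- with Trp53+/+, 2 rose (0.54%), and *Ebf1* and *Cd79a* rose in both. The macrophage markers summed to 350 to 668 CPM in wild-type mice and 286 to 396 CPM in single Trp53 heterozygotes, and 0 of 10 were called by edgeR although 9 had an unadjusted p under 0.05 (9.44% of all tested genes). In Ddx41+/- mice they summed to 428 to 560 CPM in single Ddx41 heterozygotes and 454 to 578 CPM in double heterozygotes, with a median log2 fold change for Trp53+/- of 0.05 and 7 of 10 above 0.

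The early erythroid progenitor markers summed to 1060 to 1141 CPM in Trp53+/+ mice and 1138 to 1191 CPM in Trp53+/- mice. For Trp53+/- with Ddx41+/+, 1 of the 9 tested, *Myb*, rose (log2 fold change 0.84, SE 0.162, edgeR adjusted p = 0.0159), beside 0.912% of all tested genes called. Most of that sum came from *Lmo2* and *Gfi1b*, which averaged 792 and 224 CPM. Over both Ddx41 genotypes, the median log2 fold change of the 9 markers for Trp53+/- was 0.51, against -0.00242 for all tested genes. Of the 9, 7 were above 0 and 5 had an unadjusted p under 0.05 (11.2% of all genes), while 2 did not overlap (2.01%) and 0 were called (0.287%). The late erythroid markers summed to 37910 to 42540 and 37570 to 42560 CPM, with 0 of 6 tested called and 0 at an unadjusted p under 0.05. Most of the late sum came from *Slc4a1* and *Alas2*, which averaged 27930 and 7920 CPM, and the globin genes on that list added almost nothing. Neutrophil markers summed to 5005 to 8591 CPM over all mice, with 0 of 10 called in any comparison of Trp53 genotypes. Megakaryocyte markers (83.9 to 105.1 CPM) and T and NK cell markers (5.64 to 17.4 CPM) also had 0 called. The part of these cells in the values of the members, *Cish* and *Kit* among them, and of *Fam132b* was not tested.

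**Figure D5:**
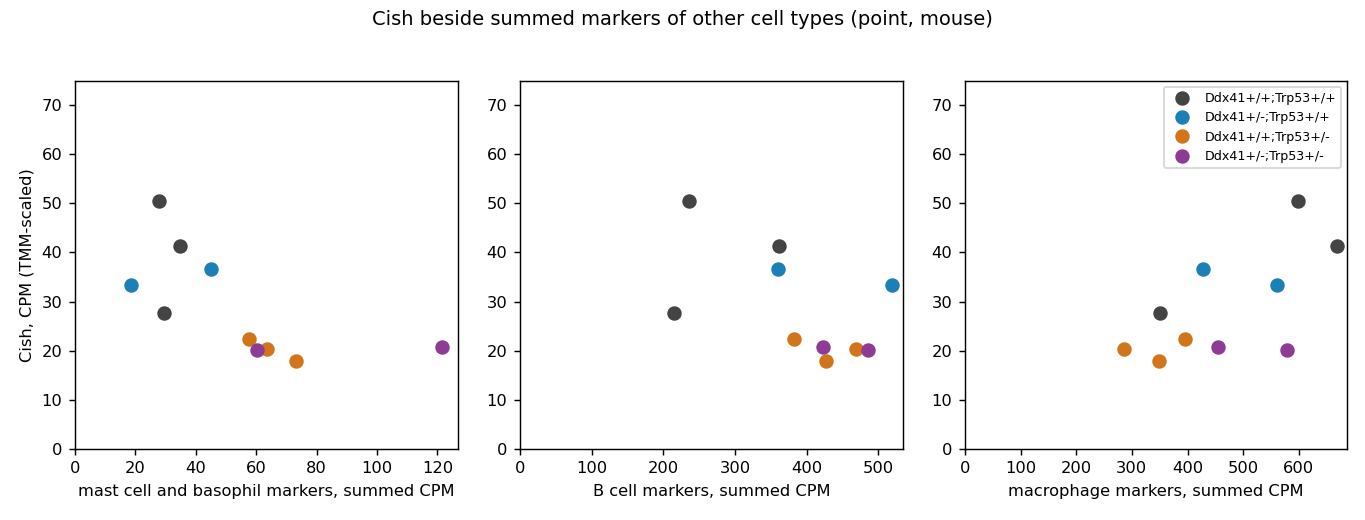
Cish in CPM against the summed CPM of markers of mast cells and basophils, B cells and macrophages, with 1 point per mouse colored by genotype. The mast cell and basophil sums separate the 5 Trp53+/- mice (57.7 to 121.6 CPM) from the 5 Trp53+/+ mice (18.7 to 44.95 CPM) as Cish does, while the B cell and macrophage sums overlap between the Trp53 genotypes.

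As a description, the tested genes whose log2 CPM followed each member most closely over the 10 mice were listed by Pearson's r, with points that share the 4 genotypes and their libraries. *Cish* was closest to *Clic1* (r = 0.955), *Trpv4* (0.951) and *Clint1* (0.95), and its r with *Fam132b* was 0.827. *Kit* was closest to *Elane* (0.932) and *Mpo* (0.920), which encode neutrophil granule enzymes, and to *Dach1* (0.918). *Socs2* was closest to *Adrbk1* (0.963), *Rag1* (0.961) and *Cd79b* (0.961), the last a B cell receptor subunit. *Socs3* was closest to *Cfp* (0.955), *Pim1* to *H2-Q4* (0.934), *Stat5a* to *Mvp* (0.902), *Stat5b* to *Ppp4r1l-ps* (0.952), *Jak2* to *Piga* (0.913) and *Epor* to *Mtg1* (0.894). Among the members themselves, the highest r was that of *Kit* with *Socs3* (0.683) and the lowest that of *Epor* with *Socs3* (-0.652).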

How the data were processed

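RNA-seq of CD71+Ter119+ bone marrow cells was analysed from 10 recipient mice of 4 genotypes, with 1 library per mouse. The table the authors deposited holds counts of reads for each gene symbol, not normalized. Its name marks it as raw counts from which some entries had been removed. The numbers in that name lie beside the mouse numbers of the single Ddx41 heterozygotes and of the double heterozygotes. These are the genotypes with the fewest mice, and both are Ddx41+/-. The genotypes of the removed entries were not stated, and the reason for removal was not given in the sources used here. The numbers of mice per genotype are those left in the table, and more mice may have been sequenced. The effect of the removal on the comparisons was not tested. The submitters' processing notes name FastQC 0.11.7, HISAT2 2.0.5, featureCounts 1.5.2 and mm10. The annotation and the settings for strand and for reads with several matches were not given in the sources used here. The labels name a stranded TruSeq mRNA kit and the paper TruSeq version 2.

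Counts were tested in R 4.3.3 with edgeR 4.0.16 (filterByExpr by genotype, 12575 genes removed, TMM scaling, quasi-likelihood F-test, two-sided) on all 10 libraries at once, in 7 comparisons: each gene within each genotype of the other, their interaction, and both as additive terms. Benjamini-Hochberg adjustment ran over all 11846 tested genes. CPM used TMM-scaled library sizes, log2 CPM a prior count of 2, and the limit for a count of 0 was 3 counts. Such limits cover counting error only, since PCR reads without molecular identifiers are not independent molecules. The SE was the log2 fold change divided by the square root of F. Every member was named, with every called gene of the pathway lists and the tested genes closest to each member by r over the mice.

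Positions and exon lengths are those of GENCODE M21 on GRCm38, and the 250 bases before starts those of RefSeq on GRCm38. Shared sequence is the share of 75-base stretches of the longest transcript found in a transcript of another gene. The procedure was tested on simulated data. Alternatives were DESeq2 1.42.0, its size factors, library totals, other filters, a likelihood ratio test, other call rules, only the genotypes compared, and each mouse left out. The members and lists were chosen with earlier results of these data known. Figures were drawn in Python 3.11.15 with matplotlib 3.10.9.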

Additional observations from a re-analysis of the deposited data

How the results depend on the processing

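*Cish* was called lower in Trp53+/- mice over both Ddx41 genotypes in 18 of 18 alternatives (log2 fold change -1.0 to -0.78, highest edgeR adjusted p 0.0152), and with Ddx41+/+ in 18 of 19 (-1.19 to -0.78). The number of members called was 0 to 1 for Trp53+/- with Ddx41+/+ when single mice were left out, 0 without single Trp53 heterozygote 24, and 2 with an unadjusted p, which added *Socs2*. Over both Ddx41 genotypes an unadjusted p also gave 2. The 1.5-fold limit was kept there, and *Stat5a*, 1.285-fold lower, did not reach it. For Trp53+/- with Ddx41+/-, 1 member, *Cish*, was called with no filter on low counts, with an unadjusted p and in a fit of only the genotypes compared, and 0 to 1 without single mice, 1 without wild-type mouse 11. With no filter on low counts, adjusted p-values were far smaller (4.04e-11 for *Cish* with Ddx41+/+), and the cause was not tested. The other member counts stayed at their values in the alternatives run. *Fam132b* was called for Trp53+/- with Ddx41+/+ in 19 of 19 alternatives, over both Ddx41 genotypes in 18 of 18, and for Ddx41+/- with Trp53+/+ in 16 of 19. Over both Trp53 genotypes it was called in 4 of 18. Its interaction was called in 2 of 18, with no filter and with an unadjusted p. Among all these alternatives, dropping the fold limit and using an unadjusted p only loosened the rule on the main fit. A gene called in the main fit could not lose its call there, for *Cish* as for *Fam132b*. Where leaving out a mouse left 1 mouse in a group, that mouse was assumed to vary like the other groups. No paired analysis was possible because no mouse number occurs in more than 1 genotype.

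Direction turned only for values that were not called. *Kit* for Ddx41+/- with Trp53+/+ was -0.00837 with DESeq2 and -0.00741 with the likelihood ratio test. With library totals, *Epor* was -0.00301 for Trp53+/- with Ddx41+/+ and -0.00973 over both Ddx41 genotypes, and the interaction of *Pim1* was 0.0015. *Jak2* for Ddx41+/- over both Trp53 genotypes was -0.00169 with no filter. The log2 fold change also crossed 0 when single mice were left out. For Ddx41+/- with Trp53+/+, it ran from -0.218 to 0.146 for *Stat5a*, -0.46 to 0.327 for *Kit*, -0.38 to 0.0277 for *Cish* and -0.0225 to 2.14 for *Socs2*. For Ddx41+/- with Trp53+/-, it ran from -0.018 to 0.192 for *Stat5b*, -0.0567 to 0.101 for *Cish*, -0.224 to 0.33 for *Socs3*, -0.763 to 0.233 for *Socs2* and -0.0218 to 0.136 for *Jak2*. For Trp53+/- with Ddx41+/+, it ran from -0.305 to 0.139 for *Socs3*, -0.161 to 0.456 for *Kit*, -0.0402 to 0.0834 for *Epor* and -0.0449 to 0.207 for *Pim1*. For Trp53+/- with Ddx41+/-, it ran from -0.568 to 0.199 for *Kit*, -0.347 to 1.82 for *Socs2* and -0.0266 to 0.0104 for *Epor*. For the interaction, it ran from -0.528 to 0.033 for *Socs3*, -0.115 to 0.137 for *Pim1*, -0.0887 to 0.0293 for *Epor*, -0.328 to 0.0357 for *Stat5a*, -0.00182 to 0.417 for *Cish*, -0.0543 to 0.156 for *Stat5b* and -0.737 to 0.0569 for *Kit*. For Ddx41+/- over both Trp53 genotypes, it ran from -0.0406 to 0.0292 for *Jak2*, -0.16 to 0.0264 for *Cish* and -0.138 to 0.8 for *Socs2*. For Trp53+/- over both Ddx41 genotypes, it ran from -0.027 to 0.0432 for *Epor* and -0.214 to 0.157 for *Kit*. The depth and 2 or 3 mice per genotype limit *Socs2* and *Kit* most.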

Other observations

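A few pathway genes without a call had the smallest unadjusted p-values of their lists, and they are named after their values were seen. *Pik3r2*, a regulatory subunit of phosphoinositide 3-kinase, which acts downstream of both receptors, stood at 23.2, 23.6 and 19.5 CPM in wild-type mice, 24.4 and 27.8 CPM in single Ddx41 heterozygotes, 17.3, 16.4 and 16.4 CPM in single Trp53 heterozygotes, and 20.3 and 19.3 CPM in double heterozygotes. Its log2 fold change for Trp53+/- over both Ddx41 genotypes was -0.40 (SE 0.0923, edgeR adjusted p = 0.066, unadjusted p = 0.000465). *Dusp6*, a phosphatase that inactivates ERK kinases and is itself induced by them, stood at 17.5, 10.8 and 19.4 CPM in wild-type mice, 24.9 and 33.7 CPM in single Ddx41 heterozygotes, 22.3, 25.8 and 27.7 CPM in single Trp53 heterozygotes, and 33.9 and 28.0 CPM in double heterozygotes. All 7 mice with a heterozygous genotype lay above the 3 wild-type mice. The share of all tested genes that separate these 7 mice from the 3 was not counted. The log2 fold change of *Dusp6* was 0.88 (SE 0.207, edgeR adjusted p = 0.071) for Ddx41+/- with Trp53+/+ and 0.68 (SE 0.186, edgeR adjusted p = 0.121) for Trp53+/- with Ddx41+/+, and these comparisons share the wild-type mice.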
